A study of Rattus norvegicus with 21 samples.

Results

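Splicing factors and heterogeneous nuclear ribonucleoproteins (hnRNPs) were followed in rat NBTII-FGFR1 and NBTII bladder carcinoma cells along a time course of FGF1. The 78 genes were taken by name from the annotation of the array: symbols that begin with Hnrnp, Srsf, Snrp, Sf3a, Sf3b, Prpf, U2af or Rbm, together with Syncrip and Ptbp1. They are 78 of the 10411 genes with a probe set of their own, and the brightest probe set on average over the 21 arrays stands for each gene. In all, 108 of the 15866 probe sets tested belong to these genes, and 20 genes have more than 1. By family there are 18 hnRNP genes (Ptbp1 and Syncrip among them), 7 SR protein genes, 8 genes of small nuclear ribonucleoproteins (snRNPs), 8 SF3A and SF3B genes, 2 U2AF genes, 10 PRPF genes and 25 RBM genes. No filter on low values was applied, so all 78 entered every test, and 74 of them lay at or above the median level of all probe sets. Esrp1, Esrp2, Srsf3 and U2af1 have no probe set of 1 symbol in the annotation used here and were not analysed, nor were 10 probe sets that join a name of this kind to other symbols.

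NBTII is an epithelial rat bladder carcinoma line, and NBTII-FGFR1 is the same line transfected with FGF receptor 1. The labels used here say neither whether NBTII-FGFR1 is a clone nor which promoter drives the receptor. Both lines received FGF1 at 20 ng/ml with heparin, and total RNA was taken at 0, 0.5, 2, 6, 24 and 48 h, with the 0 h cells as controls, in a study titled as one of the epithelial to mesenchymal transition. NBTII-FGFR1 has 2 arrays at 0, 2, 6, 24 and 48 h and 1 at 0.5 h, and NBTII has 2 arrays at 2, 6, 24 and 48 h and 1 at 0 and at 0.5 h. As every array after 0 h comes from cells with FGF1 and heparin, the ligand, heparin and time in culture cannot be told apart.

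Introns are removed by the spliceosome, which is built from snRNPs and many associated proteins. U2AF recognises the polypyrimidine tract and the end of an intron, SF3A and SF3B hold the U2 snRNP at the branch point, and PRPF proteins act in the assembly and the catalytic core. SR proteins mostly favour the inclusion of exons they bind, while hnRNPs coat nuclear transcripts and often act against inclusion, so the balance of both groups is known to shift alternative exons. In epithelial cells the ESRP proteins and their counterparts set isoform choices such as those of FGF receptor 2, which are known to change in the epithelial to mesenchymal transition. Signals from a 3′ expression array read the amount of a gene's transcript, and splicing itself was not measured.

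Values are log2 signals that the authors made with RMA, and a difference of 1 means a 2-fold difference. The medians of the 21 arrays lay between 6.13 and 6.21. The 2 arrays of a group correlated across all probe sets at 0.988 (NBTII-FGFR1 2 h) to 0.997 (NBTII-FGFR1 48 h), and the NBTII-FGFR1 2 h arrays correlated at 0.973 across the 78 genes. The Fgfr1 probe set read 4.56 to 7.58 on the NBTII-FGFR1 arrays after 0 h and 3.58 to 4.05 on all NBTII arrays. The library labelled NBTII-FGFR1 0 h replicate 1 read 3.57 and replicate 2 read 5.92, so the label of replicate 1 is in doubt. That library and NBTII-FGFR1 2 h replicate 1 are together called the doubted arrays here. The Fgfr1 signal of 2 h replicate 1 (7.58) gives no reason for doubt. The NBTII-FGFR1 2 h pair correlated least of all groups, which does not tell which of its 2 arrays differs. The name is thus no evidence against 2 h replicate 1. Many results that rest on either array, but not all, are also given without both. The poly-A spike controls (27 probe sets) averaged 5.33 to 5.72 on arrays from 0.5 h on and 6.13 to 6.64 on the 0 h arrays. Their part in the comparisons with 0 h was not tested. Epithelial markers (8 of 8 measured) averaged 8.10 to 9.63 per array, leukocyte markers (5 of 6) 4.31 to 4.53 and endothelial markers (3 of 5) 3.44 to 3.72. Not all epithelial markers were high: Krt19 read 3.24 to 3.86, and Krt18 read 4.27 to 8.09 with a median of 5.44. The other epithelial markers had medians from 8.79 to 12.50. The number of arrays limits the precision, nothing says that replicates came from separate cultures, and p-values therefore measure only the spread between these arrays, which may be technical.

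The clearest change among these genes was a fall in NBTII-FGFR1 cells at 48 h of FGF1. A gene is called here when limma's moderated test gave a Benjamini-Hochberg adjusted p under 0.05 over all 15866 probe sets. At 48 h against 24 h, 28 of the 78 genes fell and 1 rose, that is 35.9% lower, beside 5.44% of all probe sets called lower and 4.13% called higher. At 48 h against 0 h, 39 genes fell (50.0%) and 1 rose, beside 10.9% of all probe sets called lower and 10.5% called higher. The 2 lists shared 26 genes. Median log2 differences were -0.37 against 24 h and -0.43 against 0 h, beside -0.0049 and -0.026 over all genes. Because these genes give bright signals, the 1855 genes with a mean of at least 9 were also read: 12.8% of them were called lower at 48 h against 24 h (median -0.09) and 21.2% at 48 h against 0 h (median -0.06).

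**Figure D1:**
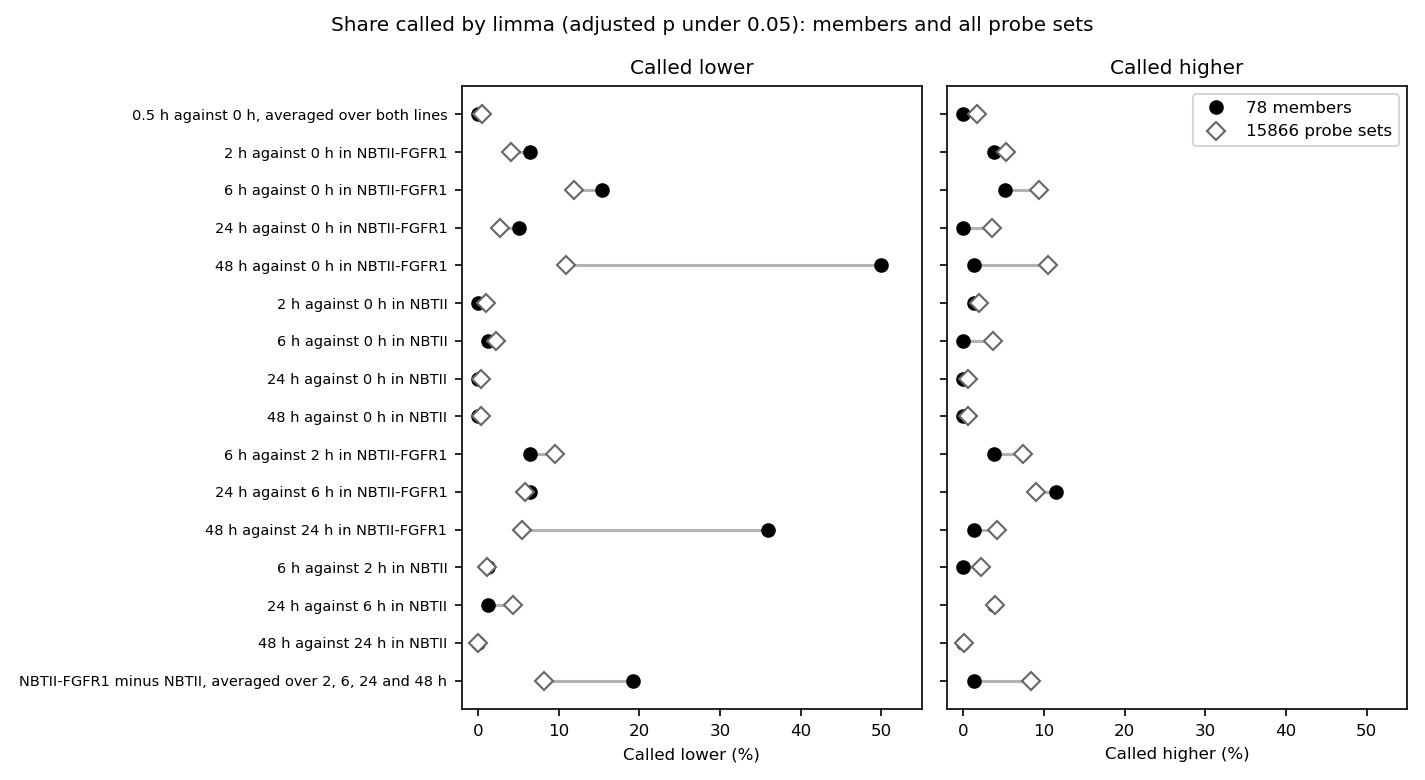
Share of the 78 genes (filled circles) and of all 15866 probe sets (open diamonds) called lower (left) and higher (right) in each comparison, in percent, by limma at an adjusted p under 0.05. The 2 comparisons of NBTII-FGFR1 at 48 h stand out on the left, with 35.9% and 50.0% of the genes called lower.

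The direction at 48 h did not rest on 1 library, but the count against 24 h changed with the array left out. Without NBTII-FGFR1 24 h replicate 1, 8 genes were called lower, and without 24 h replicate 2 it was 22. Without 48 h replicate 1 it was 9, and without 48 h replicate 2 it was 13. The number of genes with a negative difference stayed between 63 and 65 of 78 in these 4 fits. Fewer of all probe sets were called lower in these 4 fits too, and their shares stand below with the hnRNP genes. Without both doubted arrays, 31 genes were called lower against 24 h and 32 against 0 h. In that fit 6.55% of all probe sets were called lower against 24 h, beside 5.44% with all arrays. Against 0 h, where 1 NBTII-FGFR1 0 h array remained, the share of all probe sets was smaller than with all arrays. Both NBTII-FGFR1 48 h arrays lay below the other 19 arrays for 28 of the 78 genes, which was so for 3.83% of all probe sets, and above the other 19 for 0 genes, beside 5.26% of all probe sets. In the NBTII line both 48 h arrays lay below all others for 1 gene (Rbm4b), beside 0.372% of probe sets. The 3′ minus 5′ signal of beta-actin, a sign of RNA integrity, was 0.33 and 0.42 on the NBTII-FGFR1 48 h arrays and 0.20 to 0.57 on the other arrays. Of the 8 epithelial markers, 1 was called lower at 48 h against 24 h (median difference 0.08) and 4 were called lower at 48 h against 0 h (median -0.61), and their part in these falls was not tested.

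NBTII cells gave no call at the same step. Of the 78 genes 0 were called at 48 h against 24 h, with 10 at an unadjusted p under 0.05 and a median of -0.14, where 0.063% of all probe sets were called. The direction was mostly shared: the difference was negative for 61 of the 78 genes in NBTII, beside 65 in NBTII-FGFR1. The median over all genes at this step in NBTII was -0.020. Against 0 h, 0 were called at 24 h (6 unadjusted, 0.939% of all probe sets called) and 0 at 48 h (13 unadjusted, 0.908% of all probe sets called, median -0.14). At 48 h against 0 h the difference was negative for 52 of the 78 genes in NBTII, beside 63 in NBTII-FGFR1. The NBTII comparisons with 0 h rest on 1 control array. When the change of NBTII-FGFR1 was tested against the change of NBTII, a contrast added after the data had been seen, 0 genes were called for 48 h against 24 h beside 0.0126% of all probe sets. At an unadjusted p under 0.05 there were 14 genes (17.9%), all 14 more negative in NBTII-FGFR1, beside 6.98% of all probe sets. For 48 h against 0 h 2 genes, Hnrnpa0 and Prpf8, were called beside 1.13% of all probe sets, and 22 (28.2%) had an unadjusted p under 0.05, 21 of them more negative in NBTII-FGFR1, beside 14.6% of all probe sets.

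**Figure D2:**
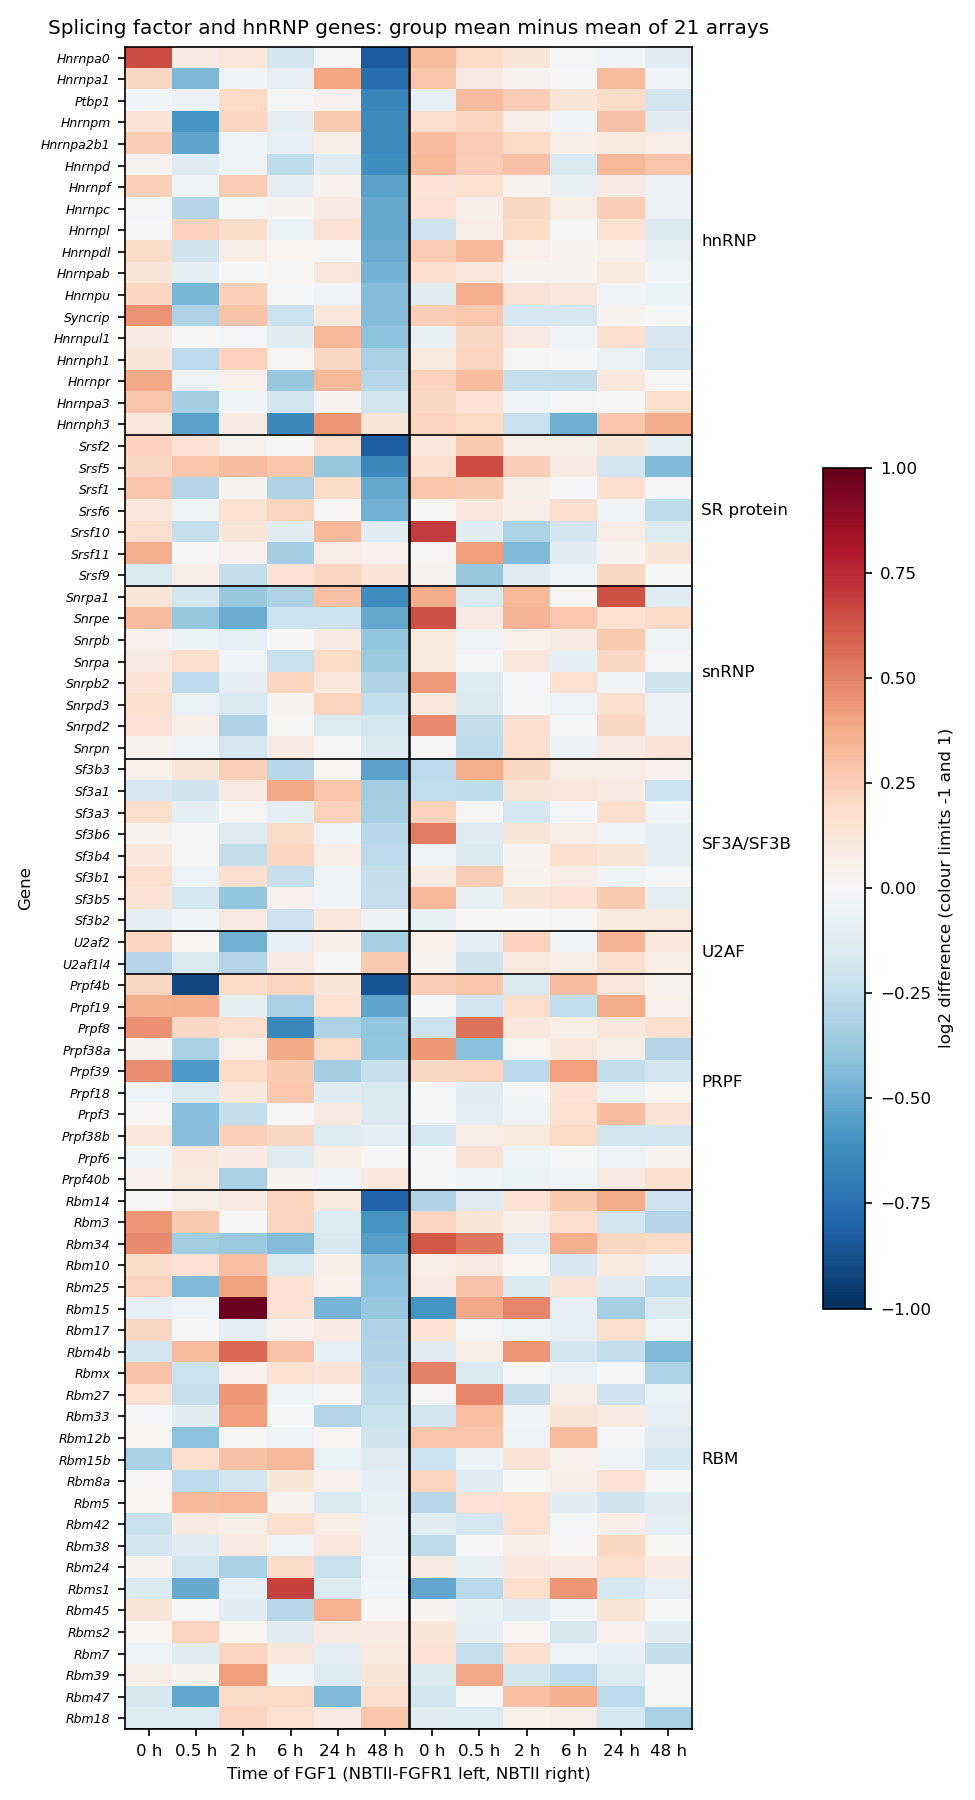
Group mean minus the mean of all 21 arrays for each of the 78 genes (rows, by family), as a log2 difference cut at -1 and 1, with the times of NBTII-FGFR1 on the left and those of NBTII on the right. The NBTII-FGFR1 48 h column is low (blue) for most hnRNP and several SR protein genes, and the RBM genes are mixed in sign.

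Of the 7 families, the hnRNP genes had the largest share called lower in the late fall. At 48 h against 24 h in NBTII-FGFR1, 14 of 18 were called lower and all 18 differences were negative, from -1.15 to -0.21 with a median of -0.59. The 4 not called were Hnrnpa3, Hnrnph3, Hnrnpu and Syncrip. Against 0 h 16 of 18 were called lower with a median of -0.65, all but Hnrnph3 and Hnrnpul1. Of all probe sets, 5.44% were called lower against 24 h and 10.9% against 0 h. The mean of the 18 genes was 9.81 and 9.79 on the NBTII-FGFR1 48 h arrays and 10.06 to 10.51 on the other NBTII-FGFR1 arrays, and it was 10.26 and 10.27 on the NBTII 48 h arrays. No other array reached the level of the NBTII-FGFR1 48 h arrays. Without NBTII-FGFR1 24 h replicate 1 the count against 24 h was 4 of 18, beside 1.46% of all probe sets called lower in that fit, and without 24 h replicate 2 it was 11, beside 3.76%. Without 48 h replicate 1 it was 6, beside 1.28%, and without 48 h replicate 2 it was 7, beside 2.46%. All 18 differences stayed negative in each of these 4 fits. Without both doubted arrays it was 15 of 18 against 24 h, beside 6.55% of all probe sets called lower. Against 0 h that fit keeps 1 NBTII-FGFR1 0 h array. The median of the 18 differences was then -0.58, and 17 of them were negative.

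**Figure D3:**
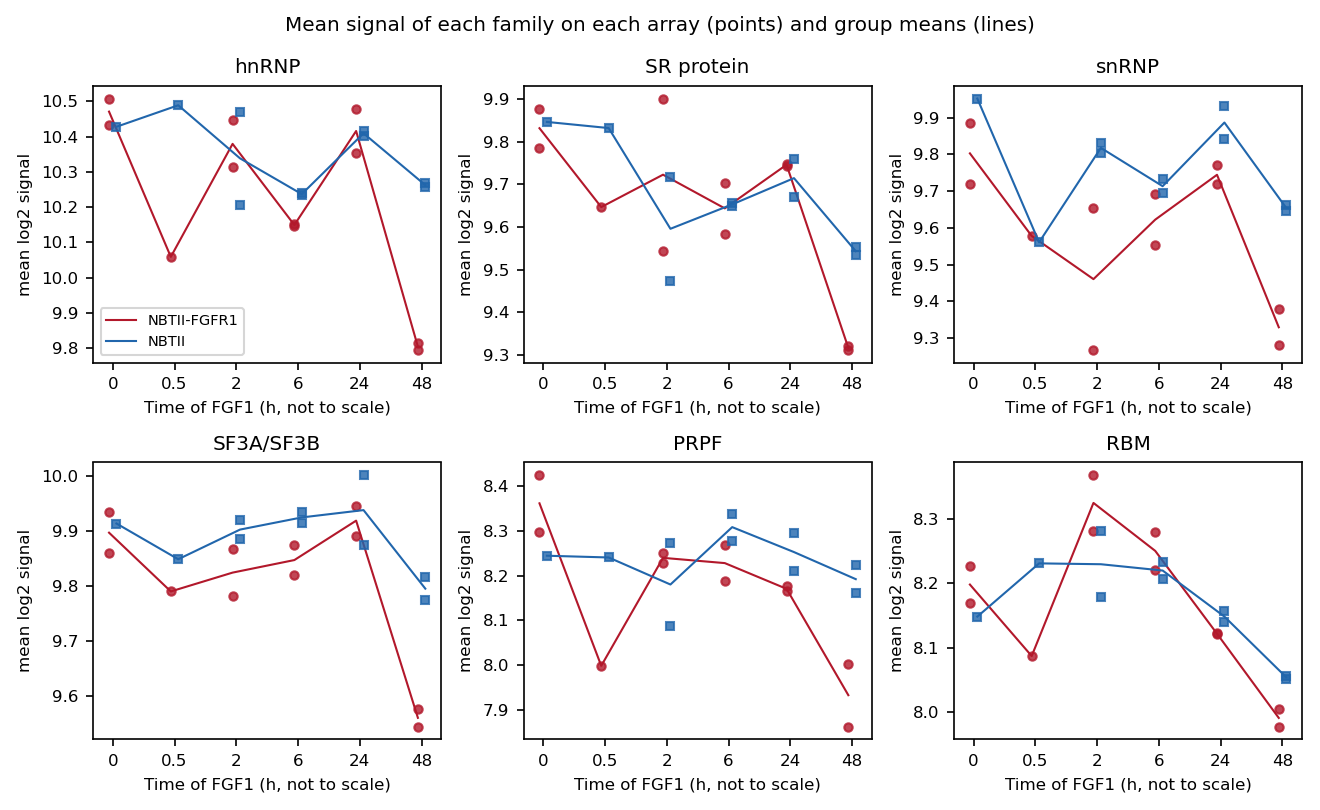
Mean log2 signal of each family with more than 2 genes on each array (points) against the time of FGF1, with lines through the group means of NBTII-FGFR1 (red circles) and NBTII (blue squares). The hnRNP mean of NBTII-FGFR1 lies at 9.81 and 9.79 at 48 h, below every other array, and the 1 NBTII-FGFR1 array at 0.5 h is at 10.06.

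Hnrnpa1, a shuttling hnRNP known to repress the inclusion of many exons, had the largest step of the family against 24 h. Its signal in NBTII-FGFR1 was 11.11 and 10.97 at 0 h, 10.38 at 0.5 h, 10.84 and 10.77 at 2 h, 10.70 and 10.80 at 6 h, 11.32 and 11.13 at 24 h and 10.05 and 10.11 at 48 h. In NBTII it was 11.11 at 0 h, 10.92 at 0.5 h, 10.75 and 10.98 at 2 h, 10.77 and 10.90 at 6 h, 11.11 and 11.18 at 24 h and 10.74 and 10.87 at 48 h. The NBTII-FGFR1 48 h arrays were the lowest of all 21 and did not overlap any other group. The log2 difference was -1.15 ± 0.12 (SE, n = 2 each) at 48 h against 24 h (adjusted p = 8.2e-05) and -0.96 ± 0.12 against 0 h (adjusted p = 4.7e-05), and it was called lower in every fit that left out 1 array. Hnrnpa1 had also risen at 24 h against 6 h, by 0.47 ± 0.12 (adjusted p = 0.013), a call lost without NBTII-FGFR1 24 h replicate 1 (0.13) or 6 h replicate 1 (0.071). Of its other 2 probe sets, 1 fell at 48 h against 24 h (-0.76, adjusted p = 0.034) and 1 was not called (-0.36, adjusted p = 0.39). At 24 h against 0 h in NBTII-FGFR1 the probe sets disagreed. The brightest gave 0.19 and was not called, while the mean of all its probe sets was called lower, so its level at 24 h depends on the probe set.

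Hnrnpa0, a relative of Hnrnpa1 that binds AU-rich messages, was called lower against 0 h at 2, 6, 24 and 48 h in NBTII-FGFR1, and the calls at 2 and 24 h were each lost when 1 of several arrays was left out. Its signal there was 11.43 and 11.57 at 0 h, 10.93 at 0.5 h, 11.02 and 10.88 at 2 h, 10.74 and 10.56 at 6 h, 11.11 and 10.60 at 24 h and 10.05 and 9.97 at 48 h. In NBTII the 48 h arrays read 10.79 and 10.66 and the 0 h array 11.16. The 0 h arrays of NBTII-FGFR1 were the highest of all 21 and its 48 h arrays the lowest. Its differences from 0 h were -0.54 at 2 h (adjusted p = 0.036), -0.85 at 6 h (adjusted p = 0.001), -0.64 at 24 h (adjusted p = 0.022) and -1.49 at 48 h (adjusted p = 1.3e-05), with an SE of 0.15 each. The change at 48 h in NBTII-FGFR1 minus that in NBTII was -1.06 ± 0.24 (adjusted p = 0.048, and 0.065 without both doubted arrays). The call at 2 h was lost without both doubted arrays (adjusted p = 0.11), without any 1 of the 4 arrays compared (0.054 to 0.18) and without either NBTII-FGFR1 48 h array (0.051 each). The call at 24 h was lost without both doubted arrays (adjusted p = 0.07), without either NBTII-FGFR1 0 h array (0.091 and 0.13) and without 24 h replicate 2 (0.3).

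Hnrnpm, known in human cells to promote exon skipping during the mesenchymal transition, read 8.97 and 8.93 in NBTII-FGFR1 at 48 h, against 9.85 and 9.85 at 24 h and 9.77 and 9.67 at 0 h. It fell against 24 h (-0.90 ± 0.12, adjusted p = 0.00063) and against 0 h (-0.77 ± 0.12, adjusted p = 0.00048). In NBTII it read 9.51 and 9.44 at 48 h and 9.79 and 9.98 at 24 h, a difference of -0.40 that was not called. The NBTII-FGFR1 0.5 h array was nearly as low as the 48 h arrays, but a lone array gives no spread of its own. That 0.5 h array was also low for Hnrnpa1 (10.38) and Hnrnpa2b1 (9.15), where the NBTII 0.5 h array read 10.92 and 9.93.

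Ptbp1, the polypyrimidine tract binding protein, represses exons in most cells outside the nervous system. It read 10.34 and 10.36 in NBTII-FGFR1 at 48 h, against 11.12 and 10.99 at 24 h, and lay between 10.94 and 11.33 on the other NBTII-FGFR1 arrays. Ptbp1 fell against 24 h (-0.70 ± 0.11, adjusted p = 0.001) and against 0 h (-0.63 ± 0.11, adjusted p = 0.00069), and both calls held in every fit that left out 1 array. In NBTII its 48 h arrays (10.84 and 10.80) were also below its 24 h arrays (11.23 and 11.16), without a call (-0.38). Hnrnpa2b1, a close relative of Hnrnpa1, read 9.02 and 9.06 at 48 h and 9.77 and 9.69 at 24 h in NBTII-FGFR1, and fell by 0.69 ± 0.16 (adjusted p = 0.013). Its other probe set gave -0.03, and the mean of both probe sets was not called (-0.36, adjusted p = 0.27), nor was the gene without NBTII-FGFR1 24 h replicate 1 (0.12), 48 h replicate 1 (0.12) or 48 h replicate 2 (0.066). Syncrip, also named hnRNP Q, fell by 0.88 ± 0.17 at 48 h against 0 h (adjusted p = 0.0017), with 9.51 and 9.69 at 48 h against 10.44 and 10.52 at 0 h. Hnrnpc, a nuclear hnRNP that binds uridine tracts, fell by 0.59 ± 0.10 against 24 h (adjusted p = 0.0019).

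Hnrnph3, of the H and F group that binds runs of G, had a course of its own. In NBTII-FGFR1 it read 7.59 and 7.37 at 0 h, 6.83 at 0.5 h, 7.39 and 7.50 at 2 h, 6.56 and 6.87 at 6 h, 7.73 and 7.88 at 24 h and 7.50 and 7.46 at 48 h. In NBTII it read 7.58 at 0 h, 7.56 at 0.5 h, 6.92 and 7.36 at 2 h, 6.93 and 6.83 at 6 h, 7.64 and 7.65 at 24 h and 7.68 and 7.79 at 48 h. Both lines were low at 6 h and high again at 24 h, with no overlap between these times. It fell at 6 h against 0 h in NBTII-FGFR1 (-0.76 ± 0.15, adjusted p = 0.0017) and in NBTII (-0.71 ± 0.18, adjusted p = 0.03, but 0.085 and 0.11 without NBTII 6 h replicates 1 and 2), and rose at 24 h against 6 h by 1.09 ± 0.15 in NBTII-FGFR1 (adjusted p = 0.00032) and by 0.76 ± 0.15 in NBTII (adjusted p = 0.0049). Hnrnpr, a relative of Syncrip, shared the fall at 6 h against 0 h (-0.76 ± 0.15, adjusted p = 0.0018) and the rise at 24 h against 6 h (0.70 ± 0.15, adjusted p = 0.0051) in NBTII-FGFR1. It then fell by 0.61 ± 0.15 at 48 h (adjusted p = 0.017), a call lost without 24 h replicate 1 (0.17), 48 h replicate 1 (0.15) or 48 h replicate 2 (0.07). The rise of Hnrnpr at 24 h was lost without NBTII-FGFR1 24 h replicate 1 (adjusted p = 0.06).

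For reference, the promoters of Hnrnpa1, Hnrnpa0 and Srsf2, 3 of the genes with large falls at 48 h, are printed here: the 180 bases before the RefSeq start, 5′ to 3′ on the strand of the gene, with CCAAT or its reverse complement ATTGG in capitals. They are from RefSeq on build GRCr8: Hnrnpa1 at chr7:136253938-136254117 on the plus strand, Hnrnpa0 at chr17:6512949-6513128 on the plus strand and Srsf2 at chr10:102554142-102554321 on the minus strand.
Hnrnpa1: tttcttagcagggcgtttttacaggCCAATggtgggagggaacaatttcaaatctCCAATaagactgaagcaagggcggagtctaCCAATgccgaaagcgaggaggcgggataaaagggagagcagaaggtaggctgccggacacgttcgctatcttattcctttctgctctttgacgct
Hnrnpa0: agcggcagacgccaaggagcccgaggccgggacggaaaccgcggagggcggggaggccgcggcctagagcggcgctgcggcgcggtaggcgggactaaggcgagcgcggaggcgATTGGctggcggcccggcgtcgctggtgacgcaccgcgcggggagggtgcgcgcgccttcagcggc
Srsf2: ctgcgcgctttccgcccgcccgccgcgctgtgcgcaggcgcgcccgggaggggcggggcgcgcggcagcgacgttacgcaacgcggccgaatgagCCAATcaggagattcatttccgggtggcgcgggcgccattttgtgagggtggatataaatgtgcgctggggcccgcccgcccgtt

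The Hnrnpa1 promoter held CCAAT 3 times, beginning at -155, -125 and -95 from the start. The Hnrnpa0 promoter held ATTGG at -66 and the Srsf2 promoter CCAAT at -85. In windows of 300 bases, from 250 before to 50 after the start, CCAAT on either strand was found for 15 of 18 hnRNP genes (83.3%) and for 40 of the 74 members with a window (54.1%), beside 37.6% of 8610 genes on the array and 37.7% of all 27457 windows. The hnRNP windows without it were those of Hnrnpd, Hnrnph1 and Syncrip. The other motifs were searched on both strands too, all of them after the data had been seen. The GC box, spelled GGGCGG, was in 52.7% of the members' windows, 59.6% of the windows of array genes and 34.9% of all windows, and in 14 of the 18 hnRNP windows (77.8%). The ETS core, spelled CCGGAAG, was in 24.3%, 15.5% and 9.22% of the same 3 sets and in 11.1% of the hnRNP windows. The cyclic AMP response core, spelled TGACGT, was in 20.3%, 10.6% and 8.22%, with 16.7% for the hnRNP genes. For the E-box, spelled CACGTG, the shares were 10.8%, 8.94% and 6.65%, with 22.2% for the hnRNP genes. For the TATA box, spelled TATAAA, they were 8.11%, 8.70% and 14.3%, with 16.7% for the hnRNP genes. For the AP-1 site, spelled TGACTCA, they were 2.70%, 3.82% and 4.53%, with 5.56% for the hnRNP genes. None of these motifs contains another, and a match describes the letters only.

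Among the SR proteins, 3 of 7 genes fell at 48 h against 24 h in NBTII-FGFR1 (Srsf1, Srsf2 and Srsf6), beside 5.44% of all probe sets. Against 0 h 4 of 7 fell, with Srsf5 in addition, beside 10.9% of all probe sets. Srsf2, which acts at splice sites across the transcriptome and whose promoter is printed above, read 10.46 and 10.52 at 48 h, against 11.59 and 11.34 at 24 h and 11.51 and 11.57 at 0 h. All other arrays of both lines lay between 11.11 and 11.59, so the NBTII-FGFR1 48 h arrays stood alone. Srsf2 fell against 24 h (-0.98 ± 0.14, adjusted p = 0.00082) and against 0 h (-1.05 ± 0.14, adjusted p = 0.00013), and its other probe set fell by 0.79 against 24 h (adjusted p = 0.00069). Srsf1, the founding member of the family, read 10.18 and 10.26 at 48 h and 11.06 and 10.80 at 24 h, and fell by 0.71 ± 0.13 (adjusted p = 0.0042), a call lost without NBTII-FGFR1 24 h replicate 1 (adjusted p = 0.078) or 48 h replicate 1 (0.062). Its 6 h arrays (10.39 and 10.46) were also below its 0 h arrays (11.02 and 11.00), with a difference of -0.59 ± 0.13 (adjusted p = 0.0058).

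Srsf5, an SR protein that favours exon inclusion, was already low at 24 h. In NBTII-FGFR1 it read 10.11 and 9.92 at 0 h, 10.05 and 10.10 at 6 h, 9.40 and 9.44 at 24 h and 9.16 and 9.15 at 48 h. It fell at 24 h against 6 h (-0.66 ± 0.15, adjusted p = 0.0078) and at 48 h against 0 h (-0.86 ± 0.15, adjusted p = 0.0007). The first of these calls was lost without 24 h replicate 1 (0.059) or 6 h replicate 2 (0.052). NBTII read 9.36 and 9.35 at 48 h and 9.97 on its 0 h array, a difference of -0.62 without a call. Srsf9, Srsf10 and Srsf11 were not called at 48 h against either time, and Srsf11 was called lower at 1 step, 6 h against 0 h in NBTII-FGFR1 (-0.70), a call lost without any 1 of the 4 arrays compared (adjusted p = 0.083 to 0.24).

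**Figure D4:**
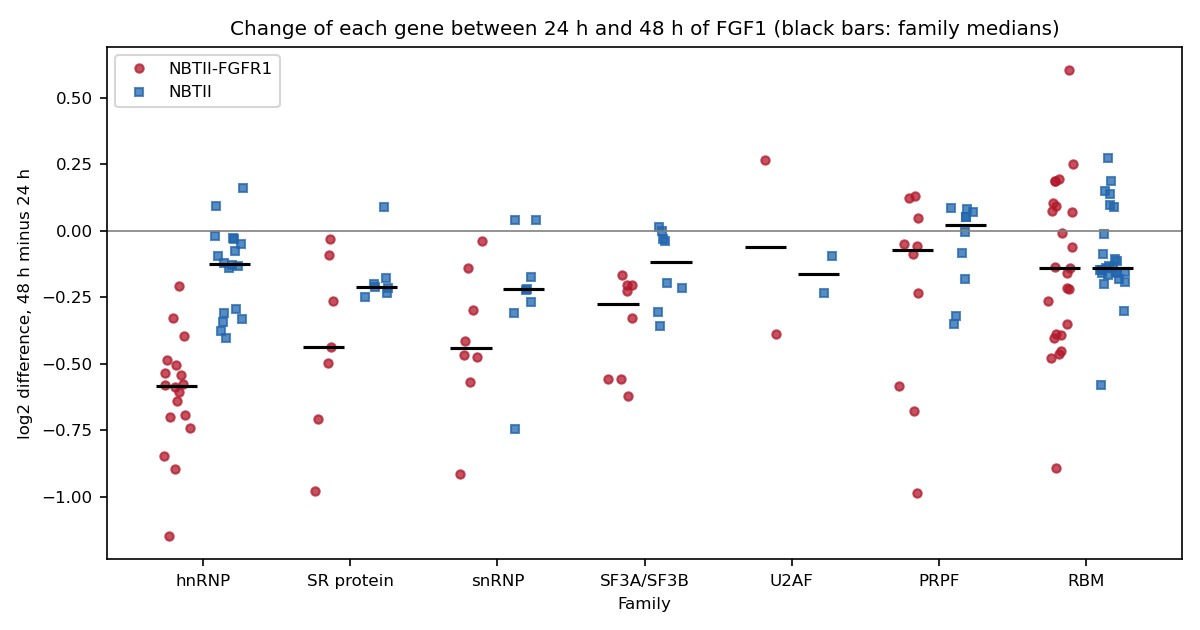
Log2 difference of each of the 78 genes at 48 h minus 24 h, by family, in NBTII-FGFR1 (red circles, left in each family) and NBTII (blue squares, right), with black bars at the family medians. All 18 hnRNP genes lie below 0 in NBTII-FGFR1, with a median of -0.59, beside a median of -0.13 in NBTII.

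Of the 8 snRNP genes, 3 fell at 48 h against 24 h in NBTII-FGFR1 (Snrpa, Snrpa1 and Snrpb), beside 5.44% of all probe sets. Against 0 h 4 fell (the same 3 and Snrpe), beside 10.9% of all probe sets. The family median was -0.44 against 24 h. Snrpa1, the A′ protein of the U2 snRNP, read 9.71 and 9.28 at 0 h, 9.19 at 0.5 h, 8.93 and 9.06 at 2 h, 8.98 and 9.15 at 6 h, 9.59 and 9.74 at 24 h and 8.72 and 8.79 at 48 h in NBTII-FGFR1. In NBTII it read 9.75 at 0 h, 9.23 at 0.5 h, 9.66 and 9.76 at 2 h, 9.31 and 9.46 at 6 h, 9.99 and 10.04 at 24 h and 9.29 and 9.25 at 48 h. Both lines were high at 24 h and low at 48 h. Snrpa1 rose at 24 h against 6 h in NBTII-FGFR1 (0.60 ± 0.13, adjusted p = 0.0074) and in NBTII (0.63 ± 0.13, adjusted p = 0.0091, but 0.093 without NBTII 6 h replicate 1 and 0.072 without 24 h replicate 2). It then fell by 0.92 ± 0.13 in NBTII-FGFR1 (adjusted p = 0.00076), while the -0.74 of NBTII was not called.

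Snrpe, a core Sm protein of the snRNPs, was lower in NBTII-FGFR1 than in NBTII at every time. In NBTII-FGFR1 it read 11.57 and 11.09 at 0 h and 10.64 at 0.5 h, and in NBTII 11.67 at 0 h and 11.10 at 0.5 h. The 11.57 is from the library labelled 0 h replicate 1, whose label is in doubt. A difference between the lines at 0 or 0.5 h was not tested. From 2 to 48 h it lay between 10.17 and 10.91 in NBTII-FGFR1 and between 11.04 and 11.42 in NBTII, with no overlap. The average difference over 2, 6, 24 and 48 h was -0.60 ± 0.10 (adjusted p = 0.001). Its fall at 2 h against 0 h in NBTII-FGFR1 (-0.81 ± 0.20, adjusted p = 0.019) rested on the doubted arrays: it was -0.21 without both (adjusted p = 0.59), and was not called without the library labelled 0 h replicate 1 alone (0.22) or 2 h replicate 1 alone (0.15). Snrpn, a neuronal relative of the Sm B protein, read 4.30 to 4.86 in NBTII-FGFR1 and 4.40 to 5.06 in NBTII and was called in no comparison.

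In the branch point complexes, 3 of 8 SF3 genes fell at 48 h against 24 h in NBTII-FGFR1 (Sf3a1, Sf3a3 and Sf3b3), beside 5.44% of all probe sets. Against 0 h 3 fell (Sf3a3, Sf3b3 and Sf3b4), beside 10.9% of all probe sets. Sf3a1, a subunit of SF3A, read 7.52 and 7.30 at 0 h, 7.83 and 8.09 at 6 h, 7.87 and 7.82 at 24 h and 7.26 and 7.19 at 48 h in NBTII-FGFR1, lowest at 48 h. It rose at 6 h against 0 h by 0.55 ± 0.14 (adjusted p = 0.011) and fell at 48 h against 24 h by 0.62 ± 0.14 (adjusted p = 0.013). The fall was lost without 24 h replicate 1 (0.11), 48 h replicate 1 (0.082) or 48 h replicate 2 (0.087). The rise was not called for the mean of its 2 probe sets (0.14, adjusted p = 0.48), nor without NBTII-FGFR1 0 h replicate 2 (0.11) or 6 h replicate 2 (0.12). Sf3b1, the large subunit that holds the branch point, read 9.67 and 9.91 at 48 h against 9.99 and 9.99 at 24 h and was called in no comparison. U2af2, the large U2AF subunit that binds the polypyrimidine tract, read 9.68 and 9.62 at 48 h against 10.20 and 10.20 at 0 h in NBTII-FGFR1 and fell by 0.55 ± 0.15 (adjusted p = 0.015). That p was 0.066 to 0.09 without any 1 of the 4 arrays compared. U2af1l4, a relative of the small subunit, was the gene that rose at 48 h against 0 h (8.27 and 8.32 against 7.83 and 7.66, a difference of 0.55 ± 0.17, adjusted p = 0.029), a call lost without any 1 of the 4 arrays compared (adjusted p = 0.066 to 0.18).

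Among the PRPF genes, Prpf8 was low from 6 h on in NBTII-FGFR1 and not in NBTII. Prpf8 encodes the large scaffold at the catalytic centre of the spliceosome. In NBTII-FGFR1 it read 10.85 and 10.76 at 0 h, 10.56 at 0.5 h, 10.66 and 10.37 at 2 h, 9.76 and 9.65 at 6 h, 10.10 and 9.98 at 24 h and 9.90 and 10.00 at 48 h. In NBTII it read 10.13 at 0 h, 10.90 at 0.5 h, 10.43 and 10.48 at 2 h, 10.45 and 10.38 at 6 h, 10.60 and 10.31 at 24 h and 10.61 and 10.41 at 48 h. From 6 h on the lines did not overlap, and the lone NBTII 0 h array was the lowest of that line. Prpf8 fell against 0 h at 6 h (-1.10 ± 0.13, adjusted p = 4.6e-05), 24 h (-0.77 ± 0.13, adjusted p = 0.0038) and 48 h (-0.85 ± 0.13, adjusted p = 0.00026), and at 6 h against 2 h (-0.82 ± 0.13, adjusted p = 0.0008). The call at 24 h was lost without 24 h replicate 2 (0.065) or the library labelled 0 h replicate 1 (0.05 after rounding, not under the threshold). Its change in NBTII-FGFR1 minus that in NBTII was -1.39 ± 0.20 at 6 h against 0 h (adjusted p = 0.013) and -1.23 ± 0.20 at 48 h against 0 h (adjusted p = 0.013), and was called without both doubted arrays too (0.028 and 0.027). At 6 h against 2 h, where no group is a single array, that difference was -0.77 ± 0.18 and was not called (adjusted p = 0.086).

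Prpf4b, a kinase that acts on the spliceosome, read 6.72 and 6.89 in NBTII-FGFR1 at 48 h, against 7.83 and 7.76 at 24 h and 8.18 and 7.58 at 0 h. It fell against 24 h (-0.99 ± 0.23, adjusted p = 0.014) and against 0 h (-1.07 ± 0.23, adjusted p = 0.0035). The NBTII-FGFR1 0.5 h array was as low, at 6.76, beside 7.95 in NBTII. The call against 24 h was lost without 24 h replicate 1 (0.11), 48 h replicate 1 (0.14) or 48 h replicate 2 (0.054), and that against 0 h without the library labelled 0 h replicate 1 (0.065). Prpf19, the ubiquitin ligase of the complex that bears its name, fell in NBTII-FGFR1 by 0.68 ± 0.14 at 48 h against 24 h (adjusted p = 0.0086, but 0.13 without 24 h replicate 1 and 0.09 without 48 h replicate 1) and rose in NBTII by 0.61 ± 0.14 at 24 h against 6 h (adjusted p = 0.017, and 0.06 to 0.12 without any 1 of the 4 NBTII arrays compared). Prpf39, an alternative splicing factor of the U1 snRNP, fell by 0.69 ± 0.23 at 48 h against 0 h (adjusted p = 0.044), a call lost without any 1 of the 4 arrays compared (0.11 to 0.21). The other 6 PRPF genes were called in no comparison.

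The RBM genes, most of which share little beyond an RNA recognition motif, had differences of both signs in NBTII-FGFR1. At 48 h against 24 h, 3 of 25 fell, beside 5.44% of all probe sets, and 1 rose, beside 4.13%. At 48 h against 0 h, 7 of 25 fell, beside 10.9% of all probe sets, and 0 rose, beside 10.5%. The family medians were -0.14 and -0.11. Rbm15, a nuclear protein that recruits the methylation machinery to messages, was the gene that rose early in both lines. It read 8.21 and 7.90 at 0 h, 8.10 at 0.5 h, 9.22 and 9.01 at 2 h, 8.04 and 8.52 at 6 h, 7.57 and 7.77 at 24 h and 7.84 and 7.68 at 48 h in NBTII-FGFR1. In NBTII it read 7.54 at 0 h, 8.52 at 0.5 h, 8.62 and 8.64 at 2 h, 8.31 and 7.80 at 6 h, 8.02 and 7.59 at 24 h and 7.95 and 8.04 at 48 h. Both lines peaked at 2 h. Rbm15 rose at 2 h against 0 h by 1.06 ± 0.20 in NBTII-FGFR1 (adjusted p = 0.0032) and by 1.09 ± 0.24 in NBTII (adjusted p = 0.022, but 0.08 and 0.053 without NBTII 2 h replicates 1 and 2). It fell at 6 h against 2 h by 0.83 ± 0.20 in NBTII-FGFR1 (adjusted p = 0.0094), a call lost without both doubted arrays (adjusted p = 0.078), without 2 h replicate 1 alone (0.074) and without 6 h replicate 1 (0.09).

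At 2 h against 0 h in NBTII-FGFR1, 3 of the 78 genes rose (Rbm15, Rbm15b and Rbm4b), beside 5.27% of all probe sets, and 5 fell (Hnrnpa0, Rbm34, Snrpa1, Snrpe and U2af2), beside 4.08%. Rbm15b, a close relative of Rbm15, rose by 0.62 ± 0.11 (adjusted p = 0.0032, and 0.051 without both doubted arrays) and Rbm4b, a splicing regulator with a near-identical paralog Rbm4, by 0.77 ± 0.15 (adjusted p = 0.0053, and 0.06 without the library labelled 0 h replicate 1). Rbm34 fell by 0.84 ± 0.18 (adjusted p = 0.0093), with 8.21 and 7.62 at 2 h against 8.99 and 8.53 at 0 h, a call lost without that library (0.14) or 2 h replicate 2 (0.069). The count of 8 was 3 without both doubted arrays, 2 without NBTII-FGFR1 0 h replicate 1, 5 without 2 h replicate 1 and 14 without 2 h replicate 2. In NBTII 1 gene (Rbm15) was called at 2 h against 0 h, beside 2.94% of all probe sets, and 1 (Hnrnph3) at 6 h against 0 h, beside 5.9%. The count at 2 h was 0 without NBTII 2 h replicate 1, 3 without NBTII 2 h replicate 2 and 2 without either NBTII-FGFR1 2 h array, and that at 6 h was 0 without NBTII 6 h replicate 1 and 2 without either NBTII-FGFR1 2 h array. At 0.5 h against 0 h, averaged over both lines, limma called 0 of 78 genes, with 25 at an unadjusted p under 0.05, beside 2.2% of all probe sets called, and it called 3 without either NBTII-FGFR1 2 h array and 2 without either NBTII 2 h array.

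At 6 h against 0 h in NBTII-FGFR1, 12 of the 78 genes fell, beside 11.9% of all probe sets, and 4 rose, beside 9.38%, so the shares of 15.4% and 5.13% were near those of all probe sets. Those that fell with the largest differences were Prpf8, Rbm34 (-0.90 ± 0.18, adjusted p = 0.0025) and Hnrnpa0, and those that rose were Rbms1, Rbm15b, Sf3a1 and Rbm4b. Rbms1, known for binding single-stranded DNA and RNA, read 8.68 and 8.30 at 6 h, against 7.89 and 7.43 at 0 h, and rose by 0.83 ± 0.25 (adjusted p = 0.027, and 0.22 and 0.17 without NBTII-FGFR1 0 h replicate 2 or 6 h replicate 1). Without NBTII-FGFR1 6 h replicate 2 the count of 16 was 9, without 0 h replicate 2 it was 10, and without both doubted arrays it was 12. At 6 h against 2 h 3 genes rose (Rbms1, Rbm24 and Sf3b4), beside 7.4% of all probe sets, and 5 fell (Hnrnph3, Prpf8, Rbm10, Rbm15 and Sf3b3), beside 9.59%. That count of 8 was 24 without NBTII-FGFR1 2 h replicate 2, 4 without 2 h replicate 1 or without both doubted arrays, and 5 without 6 h replicate 1. In NBTII 1 gene (Rbm4b, -0.62 ± 0.15, adjusted p = 0.037, with 9 of 18 fits that left out 1 array at 0.052 to 0.27) was called at 6 h against 2 h, beside 3.3% of all probe sets.

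At 24 h against 6 h in NBTII-FGFR1, 9 genes rose, beside 8.98% of all probe sets, and 5 fell, beside 5.81%. The 9 were Hnrnph3, Hnrnpr, Hnrnpa1, Rbm45 (0.63 ± 0.12, adjusted p = 0.0031), Snrpa1, Srsf1, Prpf19, Snrpa and Sf3a3, and the 5 were Rbms1, Srsf5, Rbm47, Rbm15 and Rbm15b. The count of 14 fell to 3 without NBTII-FGFR1 24 h replicate 1, to 6 without 6 h replicate 1, and to 7 without 6 h replicate 2 or 24 h replicate 2. In NBTII 3 genes rose at the same step (Hnrnph3, Snrpa1 and Prpf19), beside 3.93% of all probe sets, and 1 fell (Rbm47), beside 4.37%. That count of 4 was 1 without NBTII 6 h replicate 1 or 24 h replicate 2 and 2 without 24 h replicate 1. Epithelial markers fell at that step in both lines, with 6 of 8 called lower in each, and their part in these calls was not tested. Against 0 h 4 genes were lower at 24 h in NBTII-FGFR1 (Hnrnpa0, Prpf8, Prpf39 and Srsf5), beside 2.73% of all probe sets, and 0 higher, beside 3.57%. That count was 1 without both doubted arrays and 0 without NBTII-FGFR1 24 h replicate 2 alone or the library labelled 0 h replicate 1 alone. It was 2 without 0 h replicate 2 and 7 without either NBTII-FGFR1 2 h array.

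Rbm47, an epithelial RNA-binding protein known as a cofactor of Apobec1, was the gene that rose at 48 h against 24 h. In NBTII-FGFR1 it read 7.44 and 7.63 at 6 h, 6.91 and 6.87 at 24 h and 7.59 and 7.39 at 48 h, and in NBTII 7.71 and 7.67 at 6 h, 7.09 and 7.05 at 24 h and 7.19 and 7.49 at 48 h. Both lines were lowest at 24 h among these 3 times. Rbm47 fell at 24 h against 6 h in NBTII-FGFR1 (-0.64 ± 0.15, adjusted p = 0.0094) and in NBTII (-0.62 ± 0.15, adjusted p = 0.018). It rose at 48 h against 24 h by 0.60 ± 0.15 in NBTII-FGFR1 (adjusted p = 0.019). The fall in NBTII was lost without any 1 of its 4 arrays (0.076 to 0.11), that in NBTII-FGFR1 without 6 h replicate 2 (0.082), 24 h replicate 1 (0.053) or 24 h replicate 2 (0.056), and the rise without 24 h replicate 1 (0.11), 24 h replicate 2 (0.082) or 48 h replicate 1 (0.2). Rbm3, a cold-inducible protein, read 10.43 and 10.53 in NBTII-FGFR1 at 48 h against 11.54 and 11.48 at 0 h and fell by 1.04 ± 0.18 (adjusted p = 0.0008), where NBTII gave -0.51 without a call. Rbm14, a coactivator that also acts on splicing, read 8.67 and 8.50 at 48 h and 9.36 and 9.60 at 24 h in NBTII-FGFR1, and fell by 0.89 ± 0.15 (adjusted p = 0.0019). In NBTII it read 9.35 and 8.98 at 48 h and 9.81 and 9.68 at 24 h, a difference of -0.58 that was not called.

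**Figure D5:**
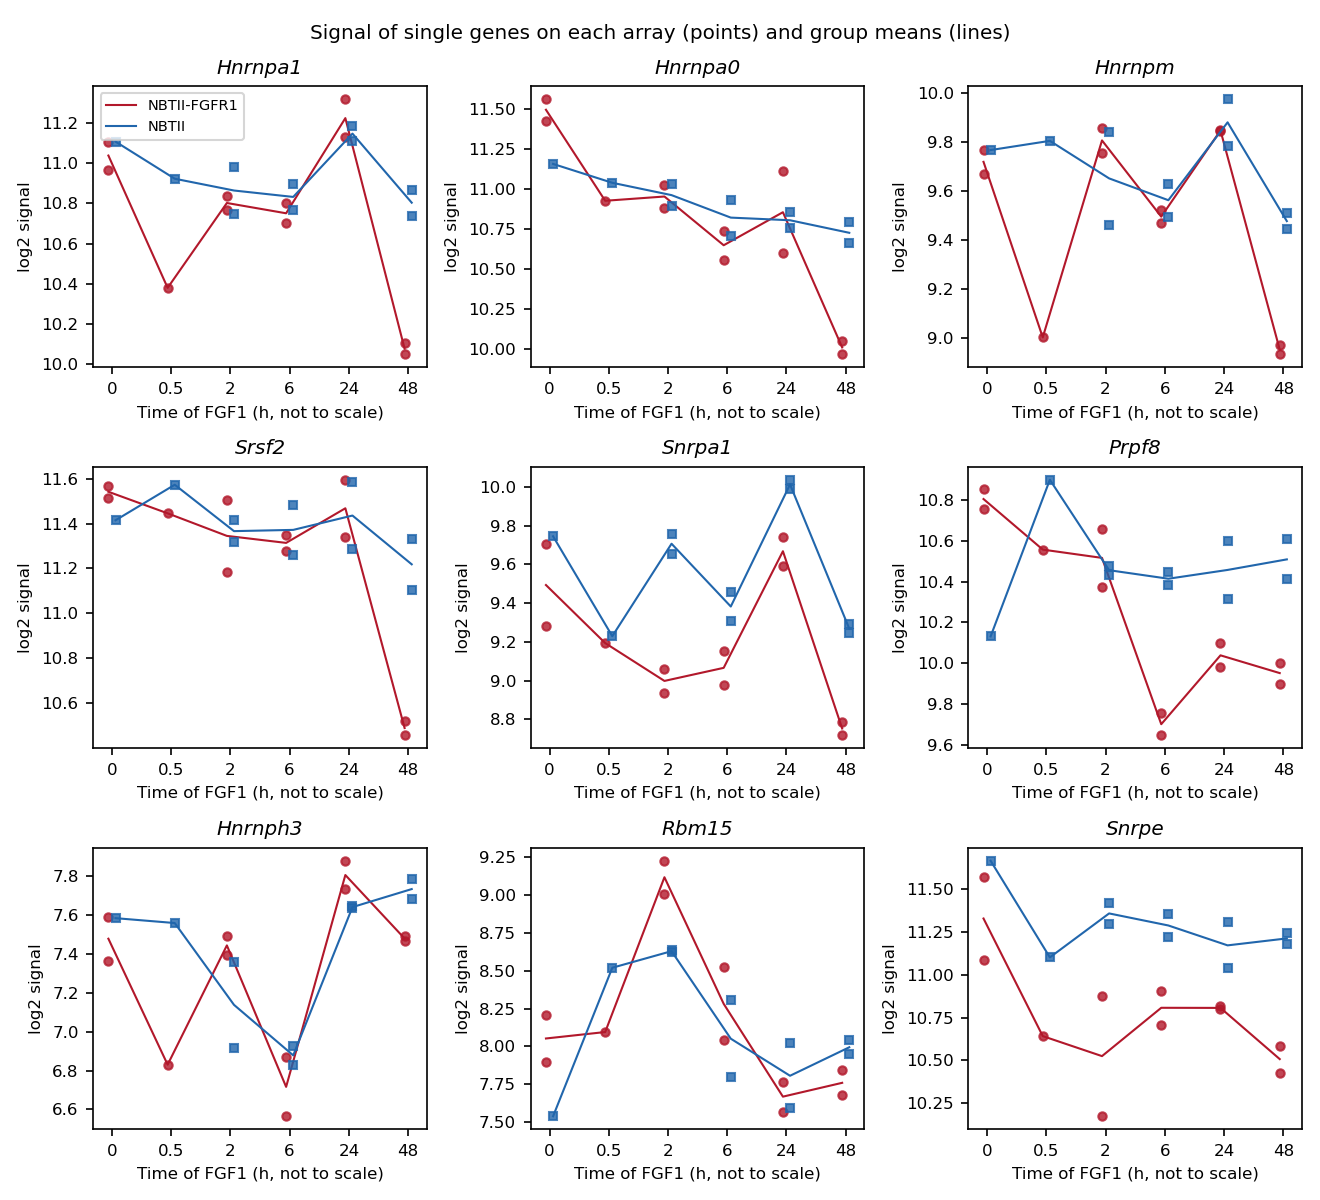
Log2 signal of 9 genes on each array (points) against the time of FGF1, with lines through the group means of NBTII-FGFR1 (red circles) and NBTII (blue squares). Hnrnpa1, Hnrnpa0, Hnrnpm and Srsf2 are lowest on the NBTII-FGFR1 48 h arrays, and Prpf8 is lower in NBTII-FGFR1 from 6 h on. Hnrnph3 dips at 6 h and Rbm15 peaks at 2 h in both lines. Snrpe is lower in NBTII-FGFR1 at every time, with no overlap from 2 h on.

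Between the lines, averaged over 2, 6, 24 and 48 h, 15 of the 78 genes were lower in NBTII-FGFR1 (19.2%), beside 8.12% of all probe sets, and 1 was higher (Rbm18, by 0.28 ± 0.08, adjusted p = 0.021, and 0.055 to 0.06 without replicate 1 of NBTII at 6, 24 or 48 h), beside 8.34%. Of the genes with a mean of at least 9, 12.2% were called lower and 10.5% higher. The 15 lower genes among the 78 were Hnrnpa1, Hnrnpa2b1, Hnrnpc, Hnrnpd, Ptbp1, Snrpa1, Snrpb, Snrpe, Sf3b3, U2af2, Prpf8, Prpf19, Rbm14, Rbm24 and Rbm34. Snrpe was the only gene of these 16 whose arrays from 2 to 48 h did not overlap between the lines. U2af2 differed by -0.37 ± 0.07 (adjusted p = 0.0036) and Hnrnpd by -0.44. The count of 16 was 10 without NBTII 6 h replicate 1 or without NBTII-FGFR1 24 h replicate 2. Among the hnRNPs called here, Hnrnpa1 (-0.20) was not called in 8 of 18 fits that left out 1 array, with an adjusted p of up to 0.081. These averages include the 48 h arrays of NBTII-FGFR1, in which most of these genes were low.

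An F test asked whether the course from 2 to 48 h differed between the lines. It called 0 of the 78 genes, with 20 at an unadjusted p under 0.05, beside 0.441% of all probe sets called, and it called 8 without NBTII-FGFR1 2 h replicate 2 and 4 without NBTII 2 h replicate 2. The 5 genes with the smallest p were Hnrnpa1 (adjusted p = 0.084), Prpf8 (0.14), Srsf2 (0.15), Hnrnpa0 (0.19) and Hnrnpm (0.19). Of the 7 contrasts of a change in NBTII-FGFR1 minus the same change in NBTII, the one of 6 h against 0 h called 1 gene (Prpf8), beside 0.403% of all probe sets, with 9 genes (11.5%) at an unadjusted p under 0.05, beside 12.4%. The contrasts of 2 h against 0 h (0%), 24 h against 0 h (0.0063%), 6 h against 2 h (0.132%) and 24 h against 6 h (0.0063% of all probe sets called) called 0 genes, with 6, 3, 8 and 2 at an unadjusted p under 0.05. These are 7.69%, 3.85%, 10.3% and 2.56% of the 78 genes, beside 7.97%, 7.51%, 17.1% and 10.9% of all probe sets, and so no larger than the shares of all probe sets. Apart from Prpf8 and Hnrnpa0, the difference between the lines in a change over time was tested and not called for any of the 78 genes. That does not show that the lines changed alike.

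The other probe sets of the 20 genes with several were read as a check within the gene. Of 30 such probe sets, 7 were called lower and 1 higher at 48 h against 24 h in NBTII-FGFR1, and 20 had a negative difference. The lower ones belong to Hnrnpa1, Hnrnpa3, Hnrnpdl, Hnrnpu, Srsf1, Srsf2 and Srsf6, and the higher one to Rbm39 (0.45, adjusted p = 0.025), a splicing coactivator whose brightest probe set was not called (0.25). Hnrnpa3 and Hnrnpu thus had a called probe set although the one that represents them here was not called. No gene had probe sets called in opposite directions at that step. Over all comparisons, 52 of the 78 genes were called in at least 1 and 26 in none. The matching share of all probe sets was not computed, so these counts are not read as a result about the genes.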

How the data were processed

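Total RNA of 21 samples was read on Affymetrix rat arrays. The deposited table holds 1 log2 signal per probe set and array, computed by RMA as named in the submitters' processing notes, with no version stated there. Of 15923 probe sets 57 controls were left out, and 12783 of the 15866 others carry 1 gene symbol in the platform annotation, 312 several and 2771 none. All 78 symbols matched RefSeq. limma 3.58.1 in R 4.3.3 fitted the 12 group means to all 21 arrays with no covariate, and p-values were adjusted by Benjamini-Hochberg over all probe sets in each comparison, as every adjusted p here. Groups with 1 array borrow the spread of the others. The fit was tested on simulated data with known changes. Python 3.11.15 with numpy 2.4.6, pandas 2.3.3 and matplotlib 3.10.9 drew the plots.

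The members and lists were chosen with earlier results of these data known. Genes named are a fixed set (Ptbp1, Syncrip, Hnrnpa1, Hnrnpa2b1, Srsf1, Srsf2, Sf3b1, U2af2, Snrpn and Rbm3), per comparison the 3 highest and 3 lowest log2 differences among called members whose arrays do not overlap, and for the F test the 5 smallest p. Others, among them Hnrnpc, Srsf11, Prpf19, Rbm14 and Rbm39, were named after their values were seen. Of the list of other splicing genes, up to 2 called genes were named per direction and comparison. Alternatives were a filter on dim probe sets, a replicate block, only the arrays compared, repeated quantile normalization, array weights, the mean of a gene's probe sets, leaving out both doubted arrays, and each array in turn. Equal replicate numbers do not establish pairs: over 36 pairs across groups, deviations correlated from -0.13 to 0.35, and 15 pairs lay over 0.1.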

Additional observations from a re-analysis of the deposited data

Results flagged for a closer look

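For 3 results the change in NBTII-FGFR1 differed from the change in NBTII by a test of the difference itself, limma's contrast of group means. Prpf8, the scaffold of the catalytic centre, differed by -1.39 at 6 h against 0 h, with a change of -1.10 in NBTII-FGFR1 and 0.28 in NBTII (adjusted p = 0.013). It differed by -1.23 at 48 h against 0 h, with changes of -0.85 in NBTII-FGFR1 and 0.38 in NBTII (adjusted p = 0.013). Hnrnpa0 differed by -1.06 at 48 h against 0 h, with changes of -1.49 in NBTII-FGFR1 and -0.43 in NBTII (adjusted p = 0.048). All 3 rest on the single NBTII 0 h array, in which Prpf8 read 10.13, the lowest of that line.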

How the results depend on the processing

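Counts of the 78 genes called at 48 h in NBTII-FGFR1 stayed within 1.5 times of 29 (against 24 h) and 40 (against 0 h) under every setting that kept all arrays, with 29 and 42 under the replicate block, and without both doubted arrays; without 1 array they ranged from 8 to 34 and from 27 to 44. With the replicate block, 1 gene was called at 0.5 h, and in NBTII 2 at 2 h, 3 at 6 h and 2 at 48 h against 0 h. With only the arrays compared, 1 gene was called at 2 h against 0 h, 0 at 6 h against 2 h and 7 at 24 h against 6 h in NBTII-FGFR1; in NBTII 0 at 2 h and at 6 h against 0 h, 0 at 6 h against 2 h and 1 at 48 h against 24 h. With array weights, 4 were called at 0.5 h, 9 at 24 h against 0 h and 2 at 6 h against 2 h in NBTII-FGFR1; in NBTII 2 at 6 h and 3 at 48 h against 0 h, 7 at 24 h against 6 h and 1 at 48 h against 24 h; and 1 by the F test. With the mean of a gene's probe sets, 7 were called at 24 h against 0 h in NBTII-FGFR1, and Hnrnpa1 there reversed to -0.40 (adjusted p = 0.033), beside 0.19 for its brightest probe set, which was not called. Without both doubted arrays, 3, 1 and 4 were called at 2 h and 24 h against 0 h and at 6 h against 2 h in NBTII-FGFR1; in NBTII 2 at 2 h, 2 at 6 h and 1 at 48 h against 0 h, 2 at 6 h against 2 h and 1 at 48 h against 24 h. Without 1 array the counts were 0 to 3 at 0.5 h; 2 to 14, 9 to 19 and 0 to 7 at 2, 6 and 24 h against 0 h, 4 to 24 at 6 h against 2 h and 3 to 17 at 24 h against 6 h in NBTII-FGFR1. In NBTII they were 0 to 3, 0 to 2, 0 to 0 and 0 to 1 at 2, 6, 24 and 48 h against 0 h, 0 to 4 at 6 h against 2 h, 1 to 6 at 24 h against 6 h and 0 to 1 at 48 h against 24 h. They were 10 to 20 between the lines and 0 to 8 by the F test. Repeated quantile normalization moved no count by over 1.5 times and kept all 199 gene results on their side of the threshold. Leaving out 1 array kept 3431 gene results, while 127 calls were lost and 24 gained. Apart from the smaller numbers of arrays, the cause of these changes was not tested. The share of all probe sets called lower at 48 h against 24 h in NBTII-FGFR1 moved with the setting too. It was 5.44% in the main fit, 9.83% with array weights and 7.8% with only the arrays compared. Under the replicate block it was 5.74%, and with repeated quantile normalization 4.69%. Only 1 or 2 arrays per group limit every comparison.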

Other observations

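A wider list of 96 other splicing and pre-mRNA processing genes, 79 of them measured, fell in NBTII-FGFR1 at 48 h as well: 26 were called lower (32.9%, beside 5.44% of all probe sets and 12.8% of the genes with a mean of at least 9) and 0 higher against 24 h (median -0.36). Against 0 h 40 were lower (50.6%, beside 10.9% of all probe sets and 21.2% of those genes) and 1 was higher (median -0.43). Sfpq, a paraspeckle protein that binds pre-mRNA, fell by 1.16 ± 0.15 against 24 h (adjusted p = 0.00049) and Ddx39b, an RNA helicase of spliceosome assembly and export, by 0.96 ± 0.12 (adjusted p = 0.00033). Dhx9, also an RNA helicase, had the lowest difference against 0 h, -1.54 ± 0.28 (adjusted p = 0.001). Celf2, a splicing regulator of muscle, heart and T cells, was the gene that rose (0.79 ± 0.18, adjusted p = 0.0055). In NBTII 0 of the 79 were called at 48 h against 24 h or against 0 h.

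At 6 h against 0 h in NBTII-FGFR1, 17 genes of this list were lower (21.5%, beside 11.9% of all probe sets). The number higher was 2 (2.53%, beside 9.38%), and the median was -0.24. Of the genes with a mean of at least 9, 18.4% were lower and 13.3% higher, so the share of lower genes was near theirs. At 24 h against 6 h 11 of this list were higher (13.9%, beside 8.98%) and 1 lower (1.27%, beside 5.81%). Genes with a mean of at least 9 gave 15.8% higher and 6.79% lower at that step, so 13.9% was no excess over them. Khdrbs3, a signal-responsive RNA-binding protein of the STAR family, fell at 6 h against 0 h in NBTII-FGFR1 (-1.38 ± 0.14, adjusted p = 1.6e-05) and in NBTII (-0.78 ± 0.17, adjusted p = 0.014). It rose at 24 h against 6 h by 1.03 ± 0.14 in NBTII-FGFR1 (adjusted p = 0.00032) and by 0.81 ± 0.14 in NBTII (adjusted p = 0.0025). Clk2, a kinase of SR proteins, rose at 6 h against 2 h in NBTII-FGFR1 (0.66 ± 0.15, adjusted p = 0.0069) and fell at 24 h against 6 h in NBTII-FGFR1 (-0.48 ± 0.15, adjusted p = 0.039) and in NBTII (-0.53 ± 0.15, adjusted p = 0.037). At 24 h against 6 h in NBTII 4 of the 79 were higher (5.06%, beside 3.93% of all probe sets) and 2 lower (2.53%, beside 4.37%), near the shares of all probe sets.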
